A study of Homo sapiens with 18 samples.

Results

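Raji cells of high GFP level were compared at 48 h and 24 h by ATAC-seq, over all 71318 peaks of the deposited count table. Chosen by GFP level and time in the labels, 6 of the 18 samples belong to this comparison, 3 at each time. Raji is a human B-cell line from a Burkitt lymphoma, and every sample is labelled Smarca4+/+. The series follows degradation of SMARCA4 through an auxin-inducible degron, a tag that sends a protein to the proteasome once the plant hormone auxin is added. GFP high samples were taken at 24, 48 and 72 h, and GFP low samples at the same times. What GFP marks, what time 0 is, whether the groups differ in auxin and whether samples came from separate cultures cannot be read from the labels, so groups are described by GFP level and time alone.

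SMARCA4, also called BRG1, is an ATPase that powers the BAF complexes, which slide and evict nucleosomes. BAF activity keeps many distal enhancers open, whereas promoters rich in CG dinucleotides generally depend on it less. In ATAC-seq a transposase cuts accessible DNA, so the count in a peak follows how open that region is across the cells of a library. In a bulk library, a change in every cell and a change in the number of cells that hold a region open cannot be told apart.

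The labels number the 3 samples of each group as replicates, but their columns showed no spread beyond a constant multiple of counting noise. This does not tell parts of 1 library from replicates that differ little. Columns of the same time differed by 1.79 to 1.80 times counting variance, alike for weak and strong peaks, against 2.5 to 2.64 for columns of 24 h and 48 h. They were therefore summed to 1 library per time, with 22908652 counts at 24 h and 29503529 at 48 h, and the difference between the times has no replicate check. A peak is called higher or lower by size alone, at 1.5-fold or 2-fold in CPM, the count scaled to library size, and the 95% interval beside a log2 change covers counting error only. Of 8 B-cell markers, 6 had a peak within 1 kb of their start, with summed levels of 254 CPM at 24 h and 252 CPM at 48 h. Start-site peaks were present for 4 of 16 T-cell markers (101 and 102 CPM), 4 of 13 epithelial and stromal markers (79.3 and 75.7 CPM) and 2 of 14 myeloid markers (29.6 and 24.9 CPM). CD3D, CD14 and EPCAM, which define those types, had none.

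Between 24 and 48 h most of the accessible regions of GFP high cells kept a similar level, and the larger differences were mostly losses at weak peaks far from gene starts. At 2-fold, 19 peaks were higher (0.0266% of all) and 226 lower (0.317%). At 1.5-fold, 748 were higher (1.05%) and 2574 lower (3.61%), so that 77.5% of the differences were losses. That imbalance depends on the scaling: with a loess correction over peak level, 1254 were higher and 1506 lower, and 54.6% were losses. The quartiles over all peaks were -0.19 and 0.16 on the log2 scale, around a median of -0.004. Counting intervals lay above no change for 6805 peaks (9.54%) and below it for 6284 (8.81%), and 640 (0.897%) and 2404 (3.37%) also passed 1.5-fold.

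**Figure D1:**
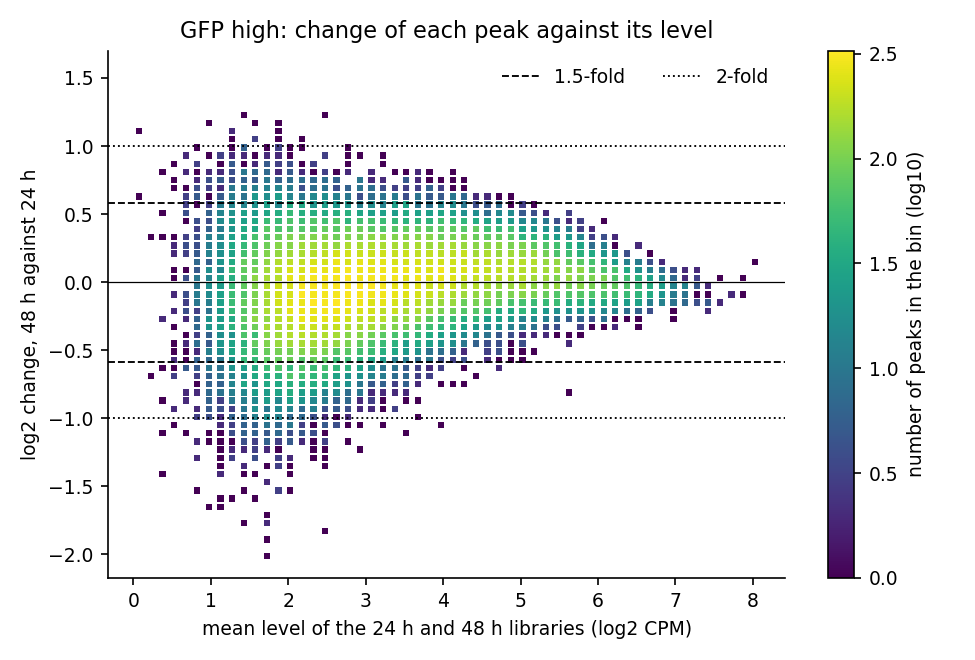
Log2 change at 48 h against 24 h (vertical axis) against mean level in log2 CPM (horizontal axis, a log scale) for all 71318 peaks of GFP high cells, binned and coloured by the number of peaks in a bin. Peaks below the lower dashed line (1.5-fold) outnumber those above the upper one, 2574 to 748, and lie mostly at low levels.

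The peaks called lower were weak. At 1.5-fold their median level was 5.33 CPM at 24 h and 3.08 CPM at 48 h, with 3.78 CPM at 72 h. Peaks called higher had medians of 3.22, 5.29 and 4.78 CPM in the same order. The 72 h library took no part in the choice, and its medians lie between those of the times compared in both sets. When peaks were ranked by level into 10 equal bins, 11.7% were called lower and 3.81% higher in the weakest bin, against 0.014% and 0% in the strongest. At an average of at least 100 counts, 1489 peaks were lower and 449 higher. A choice made in 1 of the 3 columns gives the size of the difference in reads that took no part in choosing. Peaks at least 1.5-fold lower in 1 column of each time had medians of -0.22 to -0.26 in the other columns, and those at least 1.5-fold higher had 0.09 to 0.11.

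A test was possible only for a time difference shared by both GFP levels, over all 6 summed libraries. In edgeR's quasi-likelihood test with Benjamini-Hochberg adjustment, 0 peaks were called in either direction (0.0% each), with a smallest adjusted p of 0.109. At an unadjusted p under 0.05, 2550 peaks were higher and 2819 lower at 48 h, and DESeq2 also called 0, with 1153 and 777 unadjusted. Together these were 7.53% of all peaks in edgeR and 2.71% in DESeq2. The first is above and the second below the share that a threshold of 0.05 gives without any difference. Without the 72 h libraries, edgeR called 18 higher and 29 lower on 1 residual degree of freedom.

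Where the peaks sat relative to genes went with the direction of the difference. Peaks within 1 kb of a transcription start, most of them promoters, were shifted upward: their median log2 change was 0.095 and 70.4% of 13177 were above 0. Peaks inside genes had a median of -0.021 (30664 peaks), and peaks between genes -0.053 (27477 peaks). The 11782 peaks with no protein-coding gene within 50 kb had the lowest median of these sets, -0.097, and 6.47% of them were at least 1.5-fold lower. Only 65 of 13177 start-site peaks were at least 1.5-fold lower (0.493%) and 104 higher (0.789%). Between genes, 1330 were lower (4.84%) and 318 higher (1.16%), and inside genes 1179 were lower (3.84%) and 326 higher (1.06%). Start sites thus made up 2.53% of the peaks called lower and 18.5% of all peaks.

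Level and position are linked, since start-site peaks had a median of 22.5 CPM at 24 h against 6.62 CPM between genes, so the 3 kinds were compared within the 10 bins of level. In bin 8 the medians were 0.16 at start sites, 0.045 inside genes and 0.013 between genes. Under the loess correction the start-site median over all levels was 0.033, against -0.010 inside genes and -0.032 between them. In the weakest 3 bins the kinds differed little or in another order, and from bin 4 upward start sites were highest and intergenic peaks lowest under both scalings.

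**Figure D2:**
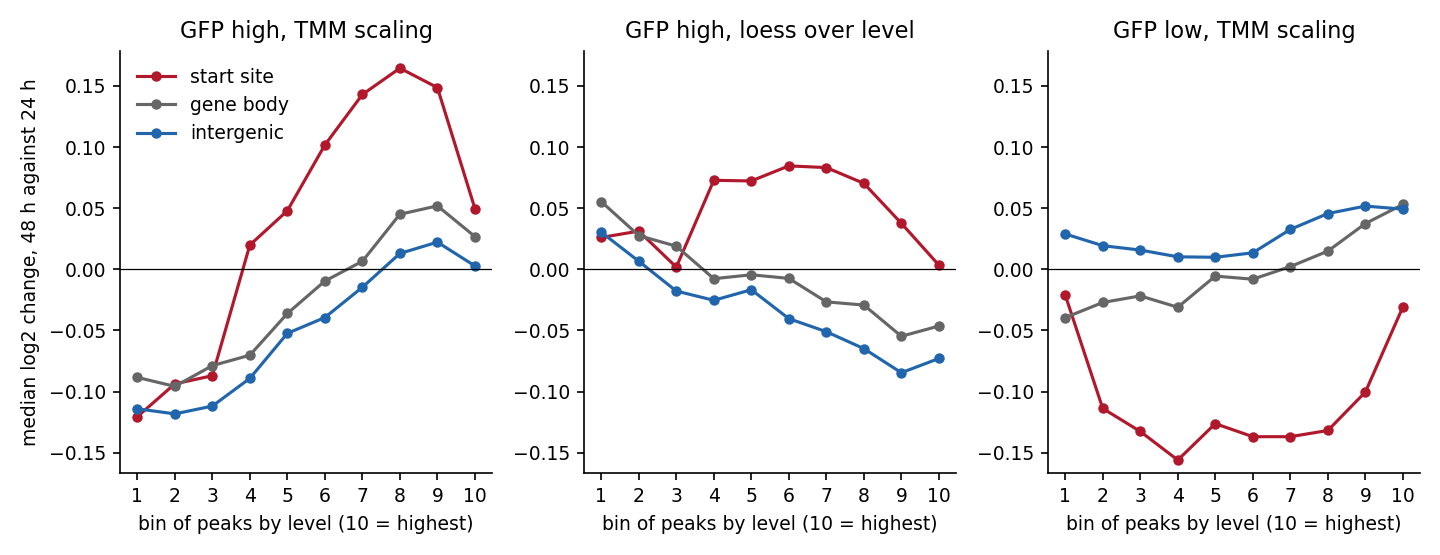
Median log2 change at 48 h against 24 h (vertical axis) in 10 bins of peaks by level (horizontal axis, 10 highest) for start-site, gene-body and intergenic peaks, in GFP high with TMM and loess scaling and in GFP low with TMM. In GFP high the start-site line lies above the others from bin 4 upward, reaching 0.16 in bin 8, and in GFP low it lies below them from bin 2 upward.

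The share of a library's counts that fell in start-site peaks moved with this result. In GFP high it was 39.8, 41.4 and 41.1% in order of time, and in GFP low 46.3, 45.0 and 46%. The GFP high 24 h library was lowest of the 6 in both that share and its total count. Peaks below the median level held 18.2% of its counts, and 16.9 and 17.6% at the later times. The part of library composition and depth in the position pattern was not tested.

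Base composition of the promoter went with the size of the shift. Promoter windows of 300 bases, from 250 before to 50 after the start, were taken from RefSeq (GRCh38.p14) for 6752 start-site peaks. The median log2 change was 0.045 in the lowest of 10 bins of GC content (median 48.3%) and 0.18 in the highest (median 79.0%). In GFP low the same bins had -0.078 and -0.14. The median peak level was 4.32 log2 CPM in the lowest GC bin and 4.50 in the highest, against 5.11 in bin 5. GC bins were not compared within bins of level, and the part of library composition was not tested. Across these windows GC content and the change correlated at r = 0.186 (Spearman 0.185) in GFP high and at -0.069 (Spearman -0.047) in GFP low, as a description over promoters that share the same libraries. By chromosome, start-site medians were highest on 17 (0.21), 22 (0.20) and 19 (0.18). In GFP low those were -0.27, -0.35 and -0.30.

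Sequence motifs, 20 in all, were searched as exact letters on both strands of these windows. Windows holding AAGATGGCG, a YY1 site, had a median of 0.17 against 0.10 without it, and this motif is in 5.26% of the 6752 windows and in 1.85% of all 27305 promoter windows in the table. In GFP low the medians were -0.15 and -0.097. Windows with the SP/KLF motif GGGGCGGGG had 0.13 against 0.095, and were richer in GC (71.0% against 63.3%). The AP-1 motif TGANTCA went with a smaller value, 0.079 against 0.11, in windows poorer in GC (60.7% against 66.0%), and it stands in 3.54% of these windows and 7.76% of all. Smaller values also went with NF-kB (GGGANTTTC, 0.068 against 0.11) and RUNX (TGTGGTT, 0.083 against 0.11). A match is a run of letters and does not show that a factor was bound.

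At start sites, the 8 named gains were those whose counting interval lay farthest from no change. Their log2 changes were 0.73 to 0.80, 1.66-fold to 1.74-fold, and in all 8 the columns of the times did not overlap, as in 11.1% of all peaks for this direction. JOSD1 encodes a deubiquitinase. Its peak (chr22:38700783-38701283) had 15.6, 13.7 and 12.2 CPM in the columns at 24 h and 24.7, 24.5 and 22.6 CPM at 48 h, a log2 change of 0.80 (0.54 to 1.05). PIAS4 is a SUMO ligase, and its peak (chr19:4007277-4007777) had 14.6, 12.4 and 14.7 CPM at 24 h against 23.6, 23.6 and 22.3 CPM at 48 h, a change of 0.73 (0.48 to 0.99). All 48 h columns of both peaks were above all 24 h columns. At BECN1, whose product starts autophagosome formation, the columns gave 9.78, 9.25 and 8.09 CPM and then 14.7, 14.5 and 16.4 CPM (chr17:42824041-42824541, change 0.76, 0.45 to 1.08). SLX4, a scaffold of nucleases that resolve branched DNA, had 9.64, 10.6 and 11.5 CPM and then 17.4, 18.4 and 17.4 CPM (chr16:3611315-3611815, change 0.74, 0.45 to 1.03). The others were at LRFN4, LOC124903372, GMEB2 and ICAM5, at 0.76 to 0.79.

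At 72 h the peaks described stood lower than at 48 h. JOSD1 stood at 18.6 CPM, PIAS4 at 17.3, BECN1 at 12.1 and SLX4 at 14.1 CPM, each between its 24 h and 48 h level. The peak at LOC124903372 differed, with 16.6 CPM at 48 h and 17.2 CPM at 72 h. The median of the 8 at 72 h against 24 h was 0.45. In GFP low, 4 of the 8 had intervals below no change from 24 to 48 h, with the opposite direction at JOSD1 (24.1 to 17.2 CPM, -0.49), PIAS4 (25.7 to 19.3 CPM, -0.41), BECN1 (16.9 to 11.4 CPM, -0.56) and ICAM5 (17 to 13.3 CPM, -0.36). LOC124903372 had its interval above no change there (0.43, 0.16 to 0.70).

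The promoter windows of PIAS4, SLX4 and BECN1 are shown because they differ in GC content while their peaks had gains of similar size, and that of SMARCA4 because it is the gene the series targets. Capitals mark matches to the motifs searched, and each is given 5′ to 3′ on the strand of the gene, from RefSeq on GRCh38.p14. PIAS4 (chr19:4007486-4007785, plus strand, 77.0% GC) holds matches to the NFY, YY1 and E-box motifs. SLX4 (chr16:3611557-3611856, minus strand, 70.3% GC) holds NRF1 and E-protein E-box matches, BECN1 (chr17:42823830-42824129, minus strand, 58.0% GC) an NFY match, and SMARCA4 (chr19:10960780-10961079, plus strand, 81.3% GC) none of the motifs searched.
PIAS4: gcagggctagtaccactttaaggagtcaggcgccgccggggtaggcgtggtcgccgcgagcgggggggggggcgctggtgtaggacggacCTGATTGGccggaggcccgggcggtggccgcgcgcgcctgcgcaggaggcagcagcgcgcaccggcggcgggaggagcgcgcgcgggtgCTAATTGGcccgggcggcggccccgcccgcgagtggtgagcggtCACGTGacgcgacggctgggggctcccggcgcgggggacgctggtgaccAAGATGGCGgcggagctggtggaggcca
SLX4: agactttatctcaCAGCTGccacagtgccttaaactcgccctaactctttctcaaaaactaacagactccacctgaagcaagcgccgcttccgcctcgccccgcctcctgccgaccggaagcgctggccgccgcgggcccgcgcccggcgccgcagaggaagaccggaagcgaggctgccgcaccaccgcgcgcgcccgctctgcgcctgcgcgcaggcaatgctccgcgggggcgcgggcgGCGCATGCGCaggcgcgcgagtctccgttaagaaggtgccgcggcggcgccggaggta
BECN1: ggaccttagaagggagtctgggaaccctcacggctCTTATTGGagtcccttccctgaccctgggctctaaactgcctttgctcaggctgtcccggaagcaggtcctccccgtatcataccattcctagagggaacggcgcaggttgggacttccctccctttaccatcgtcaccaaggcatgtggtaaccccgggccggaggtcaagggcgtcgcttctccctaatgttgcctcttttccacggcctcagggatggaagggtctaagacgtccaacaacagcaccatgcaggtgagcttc
SMARCA4: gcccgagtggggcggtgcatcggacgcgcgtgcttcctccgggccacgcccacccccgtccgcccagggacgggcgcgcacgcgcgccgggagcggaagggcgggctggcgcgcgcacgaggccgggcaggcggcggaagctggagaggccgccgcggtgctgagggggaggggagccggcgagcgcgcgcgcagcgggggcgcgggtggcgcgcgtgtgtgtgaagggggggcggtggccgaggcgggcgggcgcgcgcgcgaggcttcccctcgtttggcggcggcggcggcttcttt

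The 8 named losses near gene ends, by the same rule, were -0.80 to -1.26 on the log2 scale. All lay within 1 kb of a gene start or end, and 6 of them were start sites. SERHL2, a serine hydrolase-like gene, had 6.20, 9.38 and 8.21 CPM at 24 h against 3.20, 3.31 and 3.26 CPM at 48 h (chr22:42553563-42554063, change -1.26, -1.74 to -0.79). MSH4, which acts in meiotic recombination, had 15.4, 12.1 and 13.2 CPM and then 7.73, 6.30 and 7.43 CPM (chr1:75796255-75796755, change -0.91, -1.25 to -0.57). PPARA, a nuclear receptor of fatty acid oxidation, had 5.92, 5.71 and 6.72 CPM and then 2.43, 2.79 and 3.35 CPM (chr22:46149864-46150364, change -1.07, -1.58 to -0.55). Columns of the times did not overlap at these 3 peaks, as at 7 of the 8 and in 10.9% of all peaks for this direction. CGAS, the cytosolic DNA sensor, went from 12.5 to 7.15 CPM (-0.80, -1.14 to -0.45) and stood at 12.4 CPM at 72 h, its 24 h level. Without column V2 its change was -0.57, and that of DRD3 -0.39. NRSN1, DRD3, ADGRB3 and CASP6 completed the set at -0.86 to -1.01. The MSH4 window (chr1:75796632-75796931, plus strand, 54.0% GC) is shown as the contrast to those above, and none of the motifs searched is in it.
MSH4: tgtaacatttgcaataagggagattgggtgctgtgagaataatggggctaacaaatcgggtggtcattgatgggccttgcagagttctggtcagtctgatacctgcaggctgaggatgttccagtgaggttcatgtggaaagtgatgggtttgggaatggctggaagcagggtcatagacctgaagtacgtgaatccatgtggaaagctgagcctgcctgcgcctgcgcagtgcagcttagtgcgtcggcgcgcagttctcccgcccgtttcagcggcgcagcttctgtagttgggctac

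SMARCA4 has a start-site peak of its own (chr19:10960534-10961034). It had 15.8, 9.38 and 13.8 CPM at 24 h and 19.1, 18.7 and 20.6 CPM at 48 h. The columns did not overlap, as in 11.1% of all peaks for this direction. The log2 change was 0.59 (0.32 to 0.85), and the level returned to 13.4 CPM at 72 h. Without column V1 the change was 0.44, under 1.5-fold. In GFP low it went the other way, from 21 to 16.7 CPM (-0.33, -0.56 to -0.09). Accessibility of the promoter does not measure the protein that a degron removes, so this peak does not check the labels. SMARCA2, the alternative ATPase of BAF, has a strong start-site peak at 85.9 CPM at 24 h and 79.8 CPM at 48 h (-0.11, -0.22 to 0.01) and a weaker one at 23.3 and 27.5 CPM (0.23, 0.02 to 0.44). Over 164 peaks of 27 BAF subunit genes the median was 0.089. Of these peaks, 1 was at least 1.5-fold higher (0.61%) and 2 lower (1.22%), against 1.05% and 3.61% of all peaks. The 36 start-site peaks of these genes had a median of 0.17, against 0.095 for all start-site peaks, and their other 128 peaks had 0.069.

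Among all peaks averaging at least 100 counts, the 12 named gains were 0.78 to 1.25 on the log2 scale. RASAL1, a Ras GTPase-activating protein, had the highest change of the 71318 peaks, 1.25 (0.76 to 1.75), at a peak 15.6 kb inside the gene (chr12:113120868-113121368). Its columns held 4.13, 2.86 and 3.19 CPM at 24 h and 8.39, 7.75 and 8.24 CPM at 48 h, and the summed library stood at 7.63 CPM at 72 h. TNFSF8, a ligand of the tumour necrosis factor family, had 7.85, 7.34 and 6.5 CPM and then 11, 13.9 and 13.6 CPM (0.85, 0.50 to 1.2), and 8.72 CPM at 72 h. At EML1, a microtubule-binding protein, the levels were 6.75, 8.02 and 5.93 CPM and then 12.6, 11.3 and 15.1 CPM (0.93, 0.58 to 1.29). TCF12, an E protein of lymphoid development, had an internal peak at 2.45 CPM and then 5.25 CPM (1.08, 0.49 to 1.66). The 12 named gains held 2 start sites, JOSD1 and LRFN4. In GFP low, 6 of the 12 had intervals above no change, among them RASAL1 (0.78), EML1 (0.74) and TNFSF8 (0.59), and 1 had its interval below (JOSD1).

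The 12 named losses were -1.18 to -1.91 on the log2 scale, 2.27-fold to 3.76-fold, and only SERHL2 was a start site. Columns of the times did not overlap in any of them, as in 10.9% of all peaks for this direction. They fall into peaks that stayed low at 72 h and peaks that did not. PLCE1, a phospholipase, had 10.5, 9.65 and 11.6 CPM at 24 h, 4.97, 4.96 and 4.08 CPM at 48 h (chr10:94041857-94042357, change -1.18, -1.58 to -0.78) and 4.18 CPM in the 72 h library. ABCC11, a membrane transporter, went from 4.41, 8.70 and 7.41 CPM to 1.88, 3.10 and 1.90 CPM (-1.56, -2.1 to -1.01), with 2.81 CPM at 72 h. KIRREL3, a neuronal adhesion protein, went from 6.06, 5.03 and 7.41 CPM to 2.43, 2.17 and 1.81 CPM (-1.52, -2.09 to -0.95), with 3.37 CPM at 72 h. These 3 peaks lie inside their genes and were low at all times in GFP low, at 0.849 to 3.07 CPM. A peak 22.3 kb outside RPSA, a ribosomal protein gene, went from 8.38 to 3.39 CPM (-1.29, -1.75 to -0.82) and 4.62 CPM at 72 h, against 4.62 to 4.72 CPM in GFP low.

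In 6 of the 12 losses the 72 h level lay within 0.3 of the 24 h level on the log2 scale. The peak 2.1 kb from FRG2C had 8.54, 11.3 and 12.1 CPM at 24 h, 3.53, 3.10 and 2.26 CPM at 48 h, and 10.3 CPM in the 72 h library (chr3:75668998-75669498, change -1.85, -2.32 to -1.37). A peak far from any gene on chr22 (chr22:12693439-12693939) had 6.58, 1.69 and 5.66 CPM at the 3 times. One 24.1 kb outside ZNG1F had 6.36, 2.17 and 6.91 CPM, and one 11.8 kb outside ID1 had 11.7, 4.91 and 9.76 CPM. The others were SERHL2 and a peak on chr21 (chr21:8230442-8230942). FRG2C and ZNG1F belong to families of near-identical copies, among which reads can be split or placed at random, so their counts are uncertain. Whether the other peaks that came back at 72 h, SERHL2 among them, lie in repeated sequence was not examined. How reads with several matches were treated is not given in the sources used here.

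**Figure D3:**
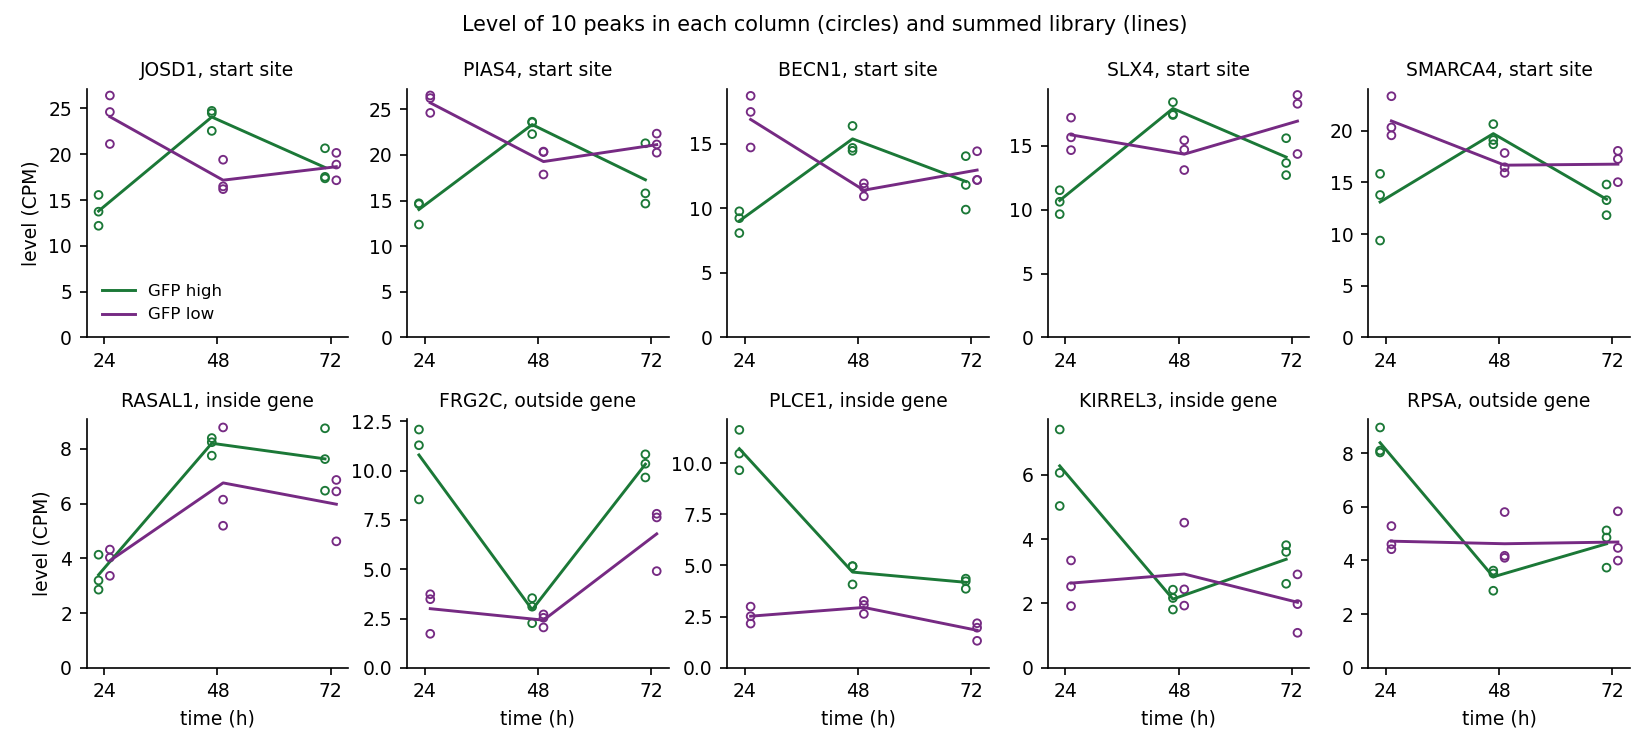
Level in CPM (vertical axis, from 0) at 24, 48 and 72 h (horizontal axis) of 10 peaks in GFP high and GFP low cells. Circles are the 3 columns of a group, which were summed to 1 library, and lines join the summed libraries. The 5 start-site peaks in the top row are higher at 48 h in GFP high and lower in GFP low, where the interval of SLX4 includes no change. In the bottom row FRG2C returns to 10.3 CPM at 72 h and PLCE1 stays at 4.18 CPM in GFP high.

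Some genes held several of the losses. Those named here were picked for these counts or medians, after their values were seen. Of 14725 genes with a peak, 47 had at least 3 peaks that were 1.5-fold lower and 2 had at least 3 that were higher. Over all peaks 3.61% were called lower and 1.05% higher. How many such genes these shares alone would give was not computed. PDZD2, a PDZ-domain scaffold, had 5 of its 10 peaks lower (median -0.50), CTNNA2, a neuronal catenin, 5 of 15 (-0.25) and PKHD1, a kidney cilium protein, 4 of 10 (-0.43). In GFP low the medians of PDZD2, CTNNA2 and PKHD1 were -0.057, -0.25 and -0.014. Among 1837 genes with at least 8 peaks, the lowest medians also included KLHL29 (-0.52) and the ephrin receptors EPHB2 (-0.46) and EPHA3 (-0.44). The highest were TAOK3, a stress-activated kinase (0.41), TNRC6B, a partner of Argonaute in microRNA silencing (0.39), and SPEN, a transcriptional corepressor (0.39). BOD1 had 3 of 9 peaks at least 1.5-fold higher. CD27 and its ligand CD70 had 2 of 10 and 2 of 5, with medians of 0.31 and 0.41, and of 0.047 and -0.26 in GFP low. The start-site peak of CD70 fell under 1.5-fold without column V2.

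Peaks close to a called peak were shifted in the same direction. For peaks called lower with another peak within 2 kb, that neighbour had a median of -0.25 and was itself called lower in 14.1% of 234 cases. Over all peaks with a neighbour that near, 0.977% of the neighbours were called lower and 0.609% higher. For peaks called higher the neighbour within 2 kb had a median of 0.21 and was called higher in 3.18% of 157 cases. At 10 to 50 kb the medians were -0.11 and 0.064, against -0.042 for all peaks with their nearest neighbour at that distance.

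Gene lists of B-cell biology and of general cell functions showed small shifts. The lists were chosen with earlier results of these data known. Medians ran from -0.16 to 0.14 over 23 lists, against -0.004 for all peaks. Start-site peaks, which were shifted upward, were 18.5% of all peaks. In the lists their share ran from 8.16% (B-cell identity factors) to 62.0% (histone genes), and list medians were not adjusted for position. The counts called at 1.5-fold are to be read beside the shares over all peaks, 1.05% higher and 3.61% lower. Replication-dependent histone genes had the highest median, 0.14 over 100 peaks with 1 higher and 0 lower, and in GFP low it was -0.12. Their 62 start-site peaks had 0.13 and the other 38 had 0.16. H2BC21, a histone H2B gene, went from 16.7 to 25.1 CPM at its start site (0.58, 0.35 to 0.82). Housekeeping genes had 0.11 over 75 peaks with 0 called in either direction, with 0.16 at 21 start sites and 0.088 at the other 54. ACTB, the actin gene, went from 51.5 to 68.0 CPM (0.40, 0.26 to 0.54). A peak 16.9 kb from EEF1A1, an elongation factor gene, went from 20 to 14.8 CPM (-0.43, -0.68 to -0.18). Cytosolic ribosomal protein genes had 0.070 over 158 peaks, with 3 higher (1.90%) and 4 lower (2.53%). Their 73 start-site peaks had 0.16 and the rest -0.070. RPL27 went from 15.3 to 23.0 CPM at its start site (0.59, 0.34 to 0.83), and the peak outside RPSA described above is among the 4. In GFP low the medians of the housekeeping and ribosomal lists were -0.10 and -0.18.

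**Figure D4:**
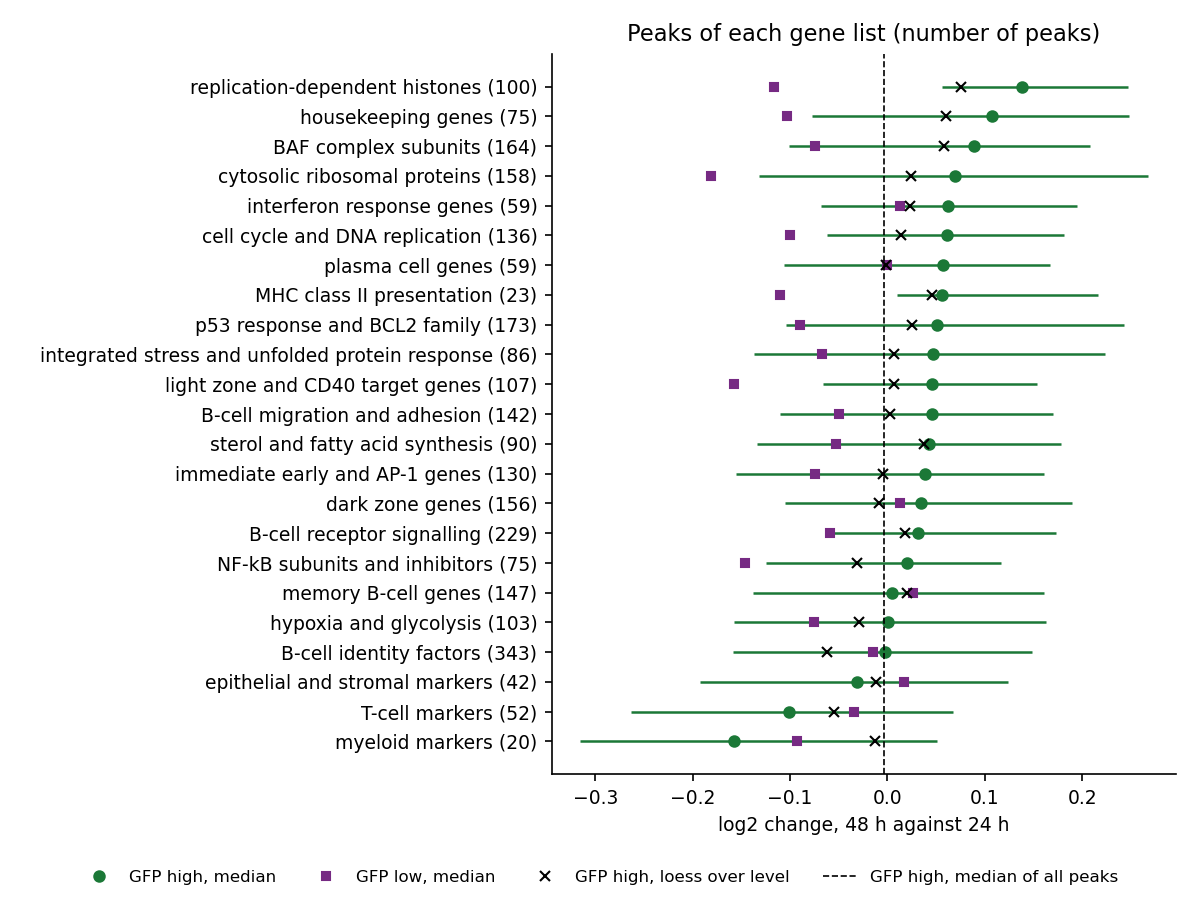
Median log2 change at 48 h against 24 h (horizontal axis) of the peaks of 23 gene lists (vertical axis, number of peaks in parentheses); circles with lines are GFP high with the range between quartiles, squares GFP low and crosses GFP high after loess scaling. GFP high medians lie between -0.16 and 0.14, and the highest 4 lists have GFP low medians below 0.

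B-cell identity factors, the transcription factors that set and hold the lineage, had 343 peaks with 1 higher (0.292%) and 7 lower (2.04%) and a median of -0.002. SPI1, which encodes PU.1, had the one 2-fold loss of the list, at a weak start-site peak of 4.77 CPM that went to 1.93 and then 4.90 CPM (-1.27, -1.89 to -0.65). That value rests on single columns, with -0.69 without V0 and -2.1 without V2. IKZF1, or Ikaros, had an internal peak at 8.56 and then 5.08 CPM (-0.74, -1.15 to -0.33). RUNX3 and ETS1 had internal peaks that were higher, from 41.2 to 53.8 CPM (0.38, 0.23 to 0.54) and from 49.3 to 63.3 CPM (0.36, 0.22 to 0.50). In GFP low the RUNX3 peak had -0.41 and the ETS1 peak 0.67.

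Germinal centre B cells alternate between a dark zone of division and a light zone of selection, and the centrocytes of the light zone are named in the title of the series. Dark zone genes had 156 peaks with 3 higher and 3 lower (1.92% each) and a median of 0.035. Peaks near CXCR4, the chemokine receptor that holds cells in the dark zone, and BCL6, the master repressor of the germinal centre, went from 10.1 to 16 CPM (0.65, 0.35 to 0.95) and from 11.7 to 18.1 CPM (0.62, 0.34 to 0.91), and in GFP low they had 0.35 and 0.38. Without column V1 the BCL6 value was 0.40, under 1.5-fold. Peaks inside FOXP1 and BACH2, both B-cell transcription factors, went the other way, from 13.9 to 9.39 CPM (-0.57, -0.88 to -0.26) and from 18.7 to 13.5 CPM (-0.48, -0.74 to -0.21), with -0.63 and -0.29 in GFP low. Light zone and CD40 target genes had 107 peaks with 0 called in either direction and a median of 0.046, against -0.16 in GFP low. CD83, a light zone marker, went from 27.0 to 35.0 CPM at its start site (0.37, 0.18 to 0.56), while peaks of TRAF1, a CD40 signalling adaptor, and FCER2, the IgE receptor CD23, had -0.42 (-0.73 to -0.10) and -0.49 (-0.91 to -0.08). NF-kB subunits and inhibitors had 0 of 75 called and a median of 0.020. Memory B-cell genes had 147 peaks with 5 higher (3.40%) and 4 lower (2.72%) and a median of 0.005, led by the start site of the corepressor TLE3, from 22.6 to 34.8 CPM (0.62, 0.42 to 0.83). A peak 44.8 kb from BCL2, which blocks apoptosis, went from 13.9 to 8.68 CPM (-0.68, -1.0 to -0.36) and had 8.68 CPM at 72 h. Plasma cell genes had 1 of 59 lower (1.69%) and 0 higher. The loss lay 15.5 kb from ELL2, an elongation factor of antibody secretion, and went from 11.7 to 7.32 CPM (-0.67, -1.01 to -0.32). Peaks of JCHAIN, the joining chain of antibodies, and PIM2, a kinase, had 0.44 (0.14 to 0.75) and 0.39 (0.13 to 0.65). B-cell receptor genes had 0 of 229 higher and 4 lower (1.75%).

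Immediate early and AP-1 genes, which respond within minutes to stimuli, had 130 peaks with 1 higher (0.769%), 4 lower (3.08%) and a median of 0.038. The start site of JUND went from 20.5, 23.0 and 20.2 CPM to 33.5, 30.1 and 33.1 CPM (0.61, 0.40 to 0.82) in GFP high and from 41.2 to 28.3 CPM (-0.54) in GFP low. The losses included the list's 2-fold one, inside MAFF, from 3.74 to 1.76 CPM (-1.05, -1.72 to -0.39) with 5.30 CPM at 72 h and a change of -0.81 without column V2, and a peak 17.9 kb from KLF6 (-0.81, -1.27 to -0.34). Cell cycle and replication genes had 136 peaks with 2 higher and 2 lower (1.47% each) and a median of 0.061. The start site of E2F1 went from 19.4 to 29.7 CPM (0.61, 0.39 to 0.83), and a peak inside MCM5, a helicase subunit gene, from 5.59 to 2.88 CPM (-0.94, -1.47 to -0.41). Genes of p53 response and the BCL2 family had 173 peaks with 3 higher (1.73%) and 2 lower (1.16%) and a median of 0.051, with peaks near the proapoptotic genes BBC3 and PMAIP1 at 0.73 (0.42 to 1.04) and 0.62 (0.32 to 0.92), and the BCL2 peak above and one inside BCL2L1, an apoptosis inhibitor, at -0.68 and -0.41 (-0.60 to -0.23). The lists of T-cell and myeloid markers, genes of other blood lineages, had the lowest medians, -0.10 over 52 peaks and -0.16 over 20, with 3 lower in each (5.77% and 15%) and 1 and 0 higher. With loess scaling those medians were -0.054 and -0.012.

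The GFP low libraries at 24 and 48 h are a separate pair and share no library with the comparison above. There 245 peaks were at least 2-fold higher (0.344%) and 149 lower (0.209%), and at 1.5-fold 2730 were higher (3.83%) and 1991 lower (2.79%). Of the 748 peaks called higher in GFP high, 85 (11.4%) were also called higher in GFP low, where they were 3.11% of the 2730, and 33 were called lower. Of the 2574 peaks called lower, 281 (10.9%) were also called lower, 14.1% of the 1991, and 125 were called higher. At 2-fold, 1 gain and 3 losses were shared. The median change in GFP low was 0.019 for the gains and -0.067 for the losses, against -0.014 for all peaks.

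Across all peaks the changes at the GFP levels were close to unrelated, at r = 0.041 (Spearman -0.004), as a description over 71318 peaks that share their libraries. Start-site peaks differed from the rest in sign, with r = -0.230 (Spearman -0.286) against 0.111 inside genes and 0.096 between genes. Their median was 0.095 in GFP high and -0.079 in GFP low. Among 61269 peaks averaging at least 100 counts, 2171 had counting intervals on opposite sides of no change at the GFP levels and 1461 on the same side. Of the 2171, 1706 were higher in GFP high, and 1298 of those were start sites. No test of the difference between GFP levels is possible with 1 library in each group.

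**Figure D5:**
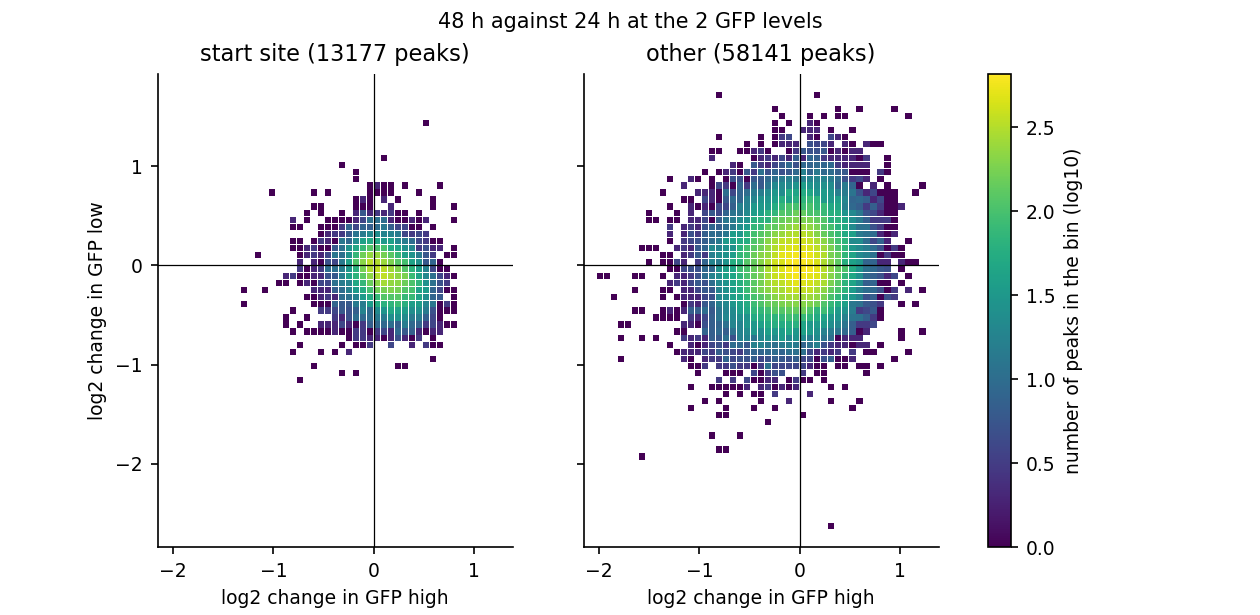
Log2 change at 48 h against 24 h in GFP high (horizontal axis) and GFP low (vertical axis), binned and coloured by the number of peaks, for 13177 start-site peaks and all others. The start-site cloud leans toward the lower right, with medians of 0.095 in GFP high and -0.079 in GFP low.

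At 72 h, with libraries that took no part in the 24 and 48 h comparison, the peaks called lower in GFP high were more often lower in GFP low than in GFP high cells. GFP low was at least 1.5-fold below GFP high at 10719 peaks (15%) and above it at 1393 (1.95%). Among the 2574 peaks lower at 48 h in GFP high, 30.1% were below and 2.72% above, with a median difference of -0.31. At an average of at least 100 counts those shares were 39.0% and 1.07%, against 15.7% of all such peaks below. Among the 748 peaks higher at 48 h, 11.1% were below and 3.88% above. In the lowest of 10 bins of the log2 ratio of GFP low to GFP high at 72 h (median -0.93), the median change in GFP high from 24 to 48 h was -0.15 and 7.70% were at least 1.5-fold lower. In bin 9 (median ratio 0.29) these were 0.062 and 1.53%, but in bin 10, with the highest ratio (median 0.45), they were 0.024 and 3.25%, so the order did not hold to the top. Start sites made up 1.33% of the lowest bin and 38.2% of bin 9. Outside start sites the median changes were -0.15 in the lowest bin, 0.018 in bin 9 and -0.005 in bin 10. Across all peaks the change in GFP high correlated with the 72 h ratio at r = 0.215 (Spearman 0.215). By position, r was 0.199 at start sites, 0.163 inside genes and 0.175 between genes. In GFP low the losses had medians of 3.55, 3.34 and 3.02 CPM at the 3 times, against 5.33, 3.08 and 3.78 CPM in GFP high, where the 24 h and 48 h values chose the peaks.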

How the data were processed

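Omni-ATAC-seq counts were analysed for Raji cells of GFP high level at 24 and 48 h, with the GFP low and 72 h samples beside them. The deposited table holds whole-number read counts, not normalised, in 1 shared set of 71318 peaks of 501 bp on hg38, for 18 columns of 7106939 to 11171849 counts. The submitters' processing notes list hg38 and 4 tools: BWA, deepTools, FastQC and R 4.2.1. Not given in the sources used here are what each tool did, the peak caller, how duplicates were handled and whether reads were shifted for Tn5. Kept duplicates, or counting both ends of a fragment, would raise the noise of each count.

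Column headers give a GFP level, a D number (read as D1, D2 and D3 for 24, 48 and 72 h) and a V number, which was not matched to a replicate number. Pairing of columns by V number was weak. Deviations of columns with the same V correlated at 0.0177, 0.0076 and 0.0092, and those of columns with different V at -0.0110 to 0.0022. The planned comparison by size, with columns summed to 1 library, was used. Log2 CPM used TMM scaling (edgeR 4.0.16, R 4.3.3) and a prior count of 2, and counting variance was multiplied by 1.80 for the 95% intervals. The test over both GFP levels was edgeR's robust quasi-likelihood test with Benjamini-Hochberg adjustment at 0.05 (6 libraries, 2 residual degrees of freedom, 22.6 median prior degrees of freedom, biological coefficient of variation 9.48%), so its p-values rest largely on spread borrowed from other peaks. Labels do not say that libraries are separate cultures, and this spread may be technical. Code was tested on simulated data. DESeq2 1.42.0 was an alternative, with other scalings, prior counts, filters, distances and columns left out.

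Peaks took the protein-coding gene that contains their centre or the nearest within 50 kb, from a RefSeq table on GRCh38.p14 (19876 genes, 94 readthrough genes left out, 59536 peaks with a gene). Starts came from RefSeq promoter windows for 15736 genes and from either gene end otherwise, and 10808 of the 13177 start-site peaks lie at a known start. Exons, introns and UTRs were not separated. Named peaks were the 12 gains and 12 losses with the counting interval farthest from 0 at a mean count of at least 100, 1 per gene; the 8 of each direction near gene ends; those at SMARCA4 and SMARCA2; 4 with opposite intervals in GFP low; and 2 of each direction per gene list. The text prints some of these, and some results are not reported here. Members and lists were chosen with earlier results of these data known.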

Additional observations from a re-analysis of the deposited data

Results flagged for a closer look

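The change from 24 to 48 h differed in direction between GFP high and GFP low at several named peaks. With 1 library per group, none of these differences was tested. The start-site peak of JOSD1 differed by 1.29 (log2 change in GFP high minus that in GFP low), PIAS4 by 1.15, BECN1 by 1.33, JUND by 1.15, EIF4A1 by 1.14 and CD70 by 1.30, each higher in GFP high and lower in GFP low. The same holds for the start site of SMARCA4, with a difference of 0.915. NRSN1, at its start site, and a peak 13.8 kb from PRDM11 went the other way, with differences of -1.74 and -1.51. EIF4A1 encodes a translation initiation helicase; its peak went from 19.4 to 29.5 CPM in GFP high and from 39.4 to 27.1 CPM in GFP low. The start-site peak of CD70, a ligand on activated B cells, went from 10.6 to 17 CPM (log2 change 0.68, 0.41 without column V2) and from 18.5 to 12 CPM. JUND, EIF4A1, CD70 and PRDM11 had been chosen for this opposite direction. Over all start-site peaks the medians differed by 0.174 (0.095 in GFP high and -0.079 in GFP low). The share of counts at start sites moved with this, at 39.8% in the GFP high and 46.3% in the GFP low library at 24 h, and its part was not tested.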

How the results depend on the processing

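Counts of called peaks depended on the scaling, the filter and the depth. Peaks at least 2-fold higher were 62 with loess scaling, 5 with a prior count of 10 and 8 at a mean count of at least 100, and peaks at least 2-fold lower were 104, 146 and 77. At 1.5-fold, loess gave 1254 and 1506, and the filter 449 and 1489. Leaving out 1 column of each time gave 61 to 104 and 378 to 450 at 2-fold, and 1283 to 1518 and 3253 to 3621 at 1.5-fold; these sums hold fewer counts. Treating the 6 columns as replicates gave 2119 higher and 1663 lower in edgeR and 907 and 515 in DESeq2. If the columns are parts of 1 library, such fits compare the libraries and not the times. With the V number as a replicate block, edgeR gave 2236 and 1749, although pairing of the columns by this number was weak. Over both GFP levels, edgeR called 18 and 29 peaks without the 72 h libraries. Medians at start sites, inside genes and between genes were 0.073, -0.042 and -0.075 with total counts, 0.033, -0.010 and -0.032 with loess and 0.089, -0.027 and -0.057 with start sites defined by 2.5 kb. With DESeq2 size factors the last pair were -0.023 and -0.056. Without 1 column the medians were 0.093 to 0.096, -0.020 to -0.024 and -0.053 to -0.055. The shares at least 1.5-fold lower in the same order were 0.326%, 2.20% and 2.86% with loess, and without 1 column 0.577 to 0.713%, 4.92 to 5.59% and 6.07 to 6.60%. With 2.5 kb, 0.690% of start-site peaks were lower. The shares at least 1.5-fold higher were 2.01% inside genes and 2.07% between genes with loess, and without 1 column 1.22 to 1.66%, 1.91 to 2.22% and 1.95 to 2.25%. For the 124 named peaks, 744 values were computed under other scalings or without a column. A change of sign was counted only where the main counting interval excluded no change, and there were 0. Most of these peaks were chosen for intervals far from no change in the same reads, so this outcome was largely fixed by the choice. Of 23 list medians, 5 changed sign with loess and 3 with genes assigned within 10 kb. The cause of these shifts was not tested beyond what each setting leaves out.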
